A study of Mus musculus with 12 samples.

Results

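The genes described here are 35 mouse genes of the cell cycle and of proliferation, chosen by name and measured by RNA sequencing in hearts under pressure overload. Each of the 35 symbols matched exactly 1 of the 54146 gene records in the deposited count files, and all 35 passed the low-count filter and were tested. They comprise 8 G1 cyclins and their kinases, 4 inhibitors of cyclin-dependent kinases (CDKs), 4 genes of the E2F1 and retinoblastoma protein group, 7 genes of replication licensing and the sliding clamp, 4 cyclin and kinase genes of S, G2 and M phase, and 8 mitotic kinase, checkpoint and proliferation marker genes.

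The study had 12 heart libraries in 3 groups of 4. Sham WT libraries came from wild-type mice after a sham operation, and TAC WT libraries from mice of the same genotype given a transverse aortic constriction, a narrowing of the aorta that raises the pressure against which the left ventricle pumps. TAC KO libraries came from mice carrying a knockout of the long noncoding RNA Nron after the constriction, and all hearts were sampled 6 weeks after surgery. A sham-operated knockout group was not analysed here, so TAC KO differed from TAC WT in genotype and from Sham WT in both genotype and surgery. The labels give no age, sex, strain or knockout design, and they do not say whether the libraries of a group are separate animals. The p-values therefore reflect only the scatter among these libraries, which may be technical.

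Cells enter the cycle when D-type cyclins activate CDK4 and CDK6, which phosphorylate the retinoblastoma protein and its relatives and so release E2F transcription factors. Cyclin E with CDK2 then drives entry into S phase on chromosomes that the MCM helicase has been loaded on, and cyclins A and B with CDK1 drive G2 and mitosis. Most cardiomyocytes of the adult mouse heart have left the cycle, while fibroblasts, endothelial cells and immune cells of the heart can divide, and D-type cyclins and CDK inhibitors also have roles in cells that do not divide.

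Library totals lay between 26288519 and 35945770 counts, and mitochondrial genes took 17.4% to 22.2% of them. Levels are counts-per-million (CPM) after TMM scaling, a scaling to the bulk of the genes. Both annotated records of Nron held 0 counts throughout the 12 libraries, so the counts did not check the knockout label. The TAC KO libraries differed from the 8 wild-type libraries in base composition: genes of the highest quintile of GC content stood 0.104 to 0.429 log2 units above those of the lowest in TAC KO, against -0.149 to -0.041 in the wild-type libraries. Values from a fit with each library's GC and length trends removed are therefore given where they end a call. For the 35 genes they are also given where they move a named difference by over 1.5 times. They are not given for marker genes, for overlapping genes, or for other listed genes that kept their call. Whether the composition difference plays a part in any knockout result was not tested.

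Few of the 35 genes were called, and those that were belonged to the G1 machinery, the inhibitors, the retinoblastoma gene, and replication licensing and the clamp. Between TAC WT and Sham WT, 1 gene rose and 3 fell, 11.4% of the 35, where 19.7% of the 15477 genes tested passed the same threshold, 9.67% higher and 10% lower (edgeR quasi-likelihood test, Benjamini-Hochberg adjusted p under 0.05 over all tested genes). Between TAC KO and TAC WT, 5 rose and 4 fell, 25.7% of the 35 against 33% of all tested genes (15.7% higher and 17.3% lower). Between TAC KO and Sham WT, 2 rose and 3 fell, 14.3% of the 35 against 27.6% of all tested genes (12.8% higher and 14.8% lower). The share called among the 35 was thus below that of all genes in each comparison, and 25 genes were called in none. A missing call does not show an unchanged level. Between TAC WT and Sham WT the standard error (SE) was 0.176 to 0.432 for the scarce S, G2 and M phase genes. For the G1 cyclins and kinases it was 0.060 to 0.211. The median log2 fold change of the 35 was 0.006, 0.051 and 0.097 in these comparisons, with all tested genes at 0, -0.002 and 0. The 3 comparisons share their groups in pairs, so their values are set side by side and are not independent of one another.

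**Figure D1:**
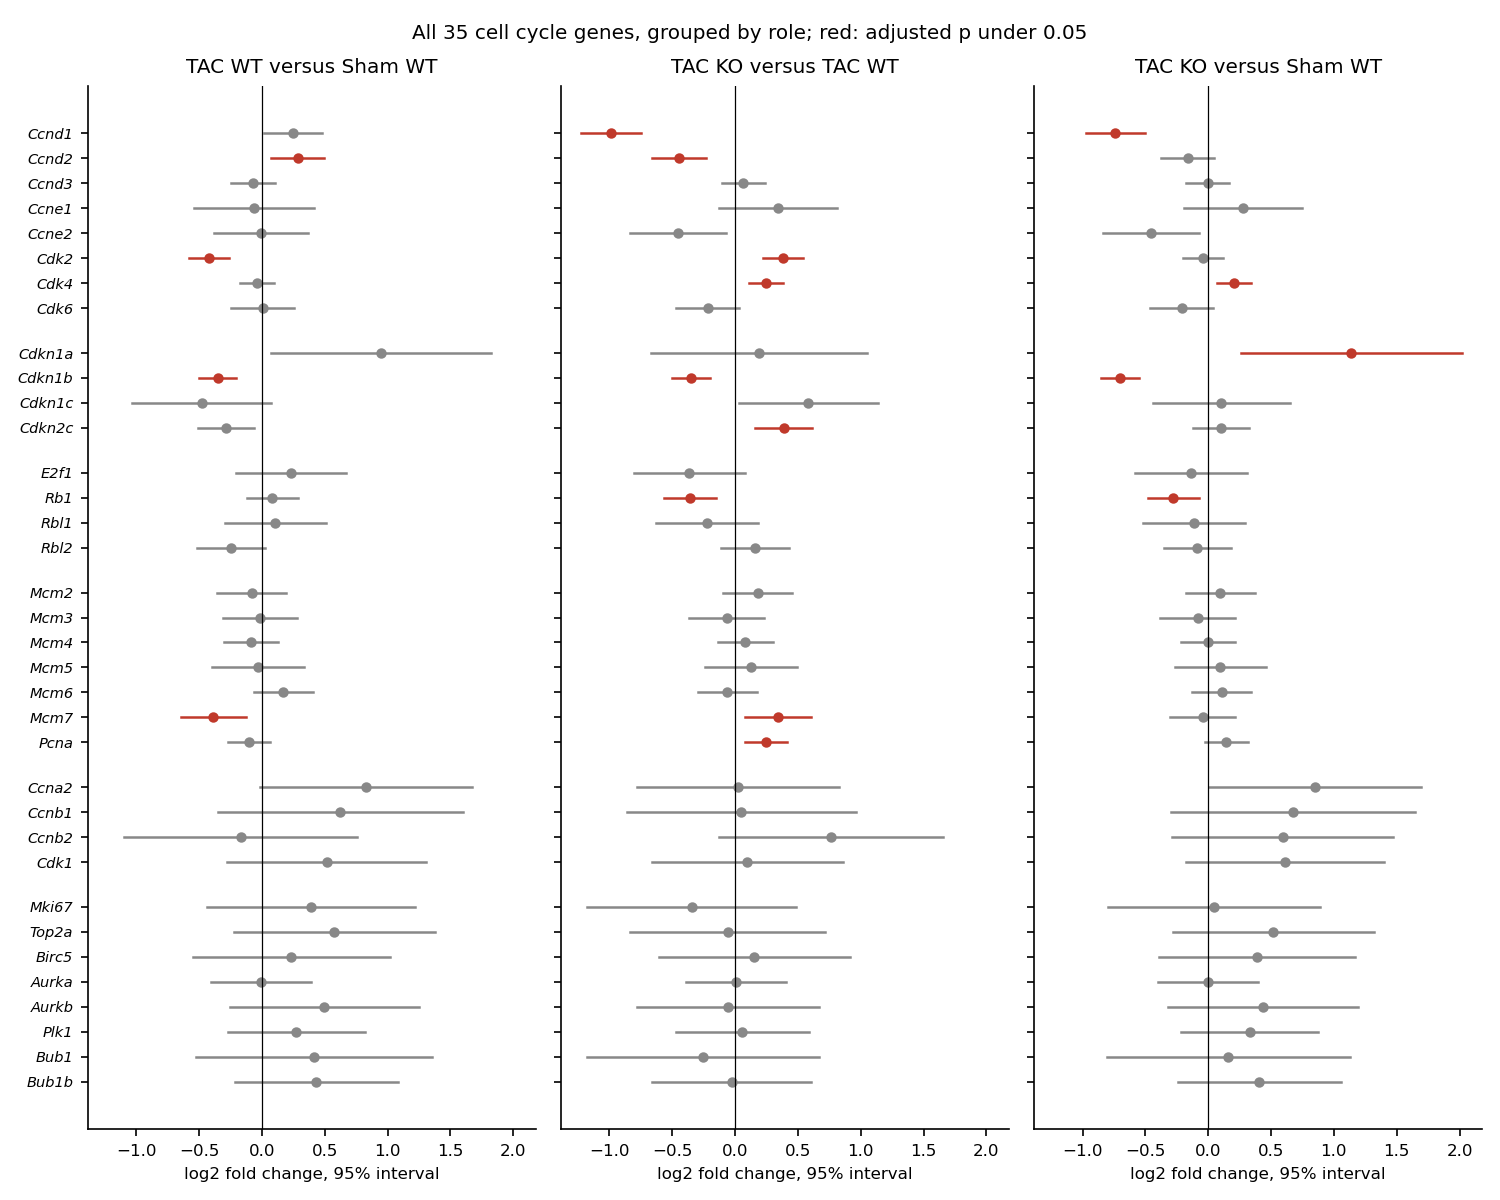
Log2 fold change of each of the 35 genes (points) with its 95% interval (bars) in the 3 comparisons; genes are in rows, grouped by role, and red marks an edgeR adjusted p under 0.05. None of the lower rows, the S, G2 and M phase genes, is red.

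The promoters of 6 members are printed to show the sequence around the genes that moved together or stepwise: Cdkn1b, lower after constriction and lower again in the knockout; Cdk2 and Mcm7, lower in TAC WT only; and Cdk1, Ccnb2 and Top2a, mitotic genes whose highest and lowest libraries largely coincided. Each window runs from 250 bases before to 50 bases after the RefSeq start on GRCm38.p6, 5′ to 3′ on the gene's strand, and 27 of the 35 members had one. Where RefSeq gave a member several, the one nearest the annotated gene start was used. Capitals mark 3 motifs searched on both strands: CCAAT, the cell cycle homology region TTTGAA, and the E2F letters TTTCCCGC, TTTGGCGC, TTTCGCGC or TTTGCCGC, which can overlap CCAAT.

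Cdkn1b (chr6:134920151-134920450, plus strand): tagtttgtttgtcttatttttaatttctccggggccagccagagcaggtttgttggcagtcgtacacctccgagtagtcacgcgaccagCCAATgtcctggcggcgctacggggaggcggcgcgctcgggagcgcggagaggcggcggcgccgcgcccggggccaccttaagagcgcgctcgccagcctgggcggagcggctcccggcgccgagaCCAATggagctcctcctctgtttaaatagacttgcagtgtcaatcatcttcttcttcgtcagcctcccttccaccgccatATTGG
Cdk2 (chr10:128705002-128705301, minus strand): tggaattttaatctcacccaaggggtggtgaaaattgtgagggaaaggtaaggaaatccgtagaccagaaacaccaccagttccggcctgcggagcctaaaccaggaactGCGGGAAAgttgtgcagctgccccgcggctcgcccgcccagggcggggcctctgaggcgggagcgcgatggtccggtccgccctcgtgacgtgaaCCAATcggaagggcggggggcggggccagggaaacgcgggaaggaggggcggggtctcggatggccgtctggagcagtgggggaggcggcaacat
Mcm7 (chr5:138171834-138172133, minus strand): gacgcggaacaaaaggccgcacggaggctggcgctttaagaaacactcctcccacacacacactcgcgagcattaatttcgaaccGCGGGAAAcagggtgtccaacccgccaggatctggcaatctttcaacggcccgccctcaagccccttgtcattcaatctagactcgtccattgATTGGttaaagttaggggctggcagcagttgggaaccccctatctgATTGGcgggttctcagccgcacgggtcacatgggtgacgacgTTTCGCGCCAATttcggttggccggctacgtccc
Cdk1 (chr10:69352863-69353162, minus strand): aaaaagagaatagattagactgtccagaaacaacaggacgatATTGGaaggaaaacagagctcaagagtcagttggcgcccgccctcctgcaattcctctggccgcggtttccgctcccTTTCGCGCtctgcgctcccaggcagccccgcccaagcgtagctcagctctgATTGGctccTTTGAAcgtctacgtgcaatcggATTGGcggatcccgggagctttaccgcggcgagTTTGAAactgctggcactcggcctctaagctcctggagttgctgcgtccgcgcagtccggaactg
Ccnb2 (chr9:70421505-70421804, minus strand): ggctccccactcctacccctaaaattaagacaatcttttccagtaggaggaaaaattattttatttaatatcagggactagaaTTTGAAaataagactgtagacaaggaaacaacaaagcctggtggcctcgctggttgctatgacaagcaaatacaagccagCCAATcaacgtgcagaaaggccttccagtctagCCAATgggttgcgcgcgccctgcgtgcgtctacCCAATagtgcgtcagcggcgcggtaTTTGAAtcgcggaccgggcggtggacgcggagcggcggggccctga
Top2a (chr11:99024140-99024439, minus strand): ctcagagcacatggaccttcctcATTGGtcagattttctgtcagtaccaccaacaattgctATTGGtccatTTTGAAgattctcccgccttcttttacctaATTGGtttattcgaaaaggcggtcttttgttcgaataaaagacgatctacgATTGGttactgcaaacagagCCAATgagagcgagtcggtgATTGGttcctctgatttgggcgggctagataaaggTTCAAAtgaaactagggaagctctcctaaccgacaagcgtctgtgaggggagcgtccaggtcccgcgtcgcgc

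In these windows Cdk1 held all 3 motifs, Ccnb2 and Top2a held CCAAT and the TTTGAA letters, and Cdk2 and Mcm7 held CCAAT and an E2F match. The Cdkn1b window held CCAAT alone. Across the 27 members an E2F match was found in 7 windows (25.9%), against 2.26% of 32851 promoter windows of the same length. TTTGAA was found in 9 (33.3%, against 17.89%) and CCAAT in 17 (63.0%, against 37.41%). A match describes these letters and is not a measured binding site.

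Cyclin D1, the growth-factor-responsive partner of CDK4 and CDK6, gave the largest called change among the D cyclins, and it was lower in the knockout. Ccnd1 (chr7:144929931-144939925, minus strand, GRCm38) stood at 100.3, 123.6, 123.3 and 119.6 CPM in Sham WT, at 158.3, 108.5, 152.8 and 135.2 CPM in TAC WT, and at 73.8, 68.1, 67.0 and 70.9 CPM in TAC KO. Every TAC KO library was below every wild-type library, while the TAC WT and Sham WT ranges overlapped through the TAC WT 2 library at 108.5 CPM. Ccnd1 fell by 49.6% from TAC WT to TAC KO (log2 -0.99, SE 0.104, edgeR adjusted p = 3.28e-05). It also fell by 40.1% from Sham WT to TAC KO (log2 -0.74, SE 0.104, edgeR adjusted p = 0.000248). Between TAC WT and Sham WT the log2 difference was 0.25 with a 95% interval of 0.017 to 0.48 and an edgeR adjusted p of 0.105. Without the TAC WT 2 library that adjusted p was 0.00699, and with limma voom it was 0.0366. Exons of LTO1 on the other strand cover 23.4% of the exon length of Ccnd1, and LTO1 itself differed by a log2 value of 0.008 between TAC KO and TAC WT (edgeR adjusted p = 0.954). In bulk hearts, fewer cells of a type and less RNA per cell cannot be told apart, for this gene and for all that follow.

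Cyclin D2 rose after constriction and was lower again in the knockout. Ccnd2 stood at 128.7, 145.1, 161 and 158.9 CPM in Sham WT, at 197.9, 192.2, 162.9 and 169.7 CPM in TAC WT, and at 130.5, 153.9, 122.6 and 123.3 CPM in TAC KO. All 4 TAC WT libraries were above all others, and the Sham WT and TAC KO ranges overlapped. From Sham WT to TAC WT it rose by 21.7% (log2 0.28, SE 0.093, edgeR adjusted p = 0.0454), a call that ended when any one of 6 libraries was left out (replicates 1, 2 and 4 of both groups), with adjusted p between 0.0505 and 0.127. From TAC WT to TAC KO it fell by 26.6% (log2 -0.45, SE 0.094, edgeR adjusted p = 0.00273). TAC KO against Sham WT gave a log2 difference of -0.16 (95% interval -0.38 to 0.048), and -0.058 with the GC and length trends removed. Ccnd3, the remaining D cyclin, lay between 62.8 and 81.0 CPM in the 12 libraries with overlapping ranges in each comparison and was not called. Per kilobase of exon, the scale on which genes can be compared, mean levels in Sham WT were 24.8 CPM for Ccnd1, 15.8 for Ccnd2 and 8.39 for Ccnd3. In TAC KO, Ccnd1 and Ccnd2 were close to each other at 14.9 and 14.1 CPM per kilobase.

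**Figure D2:**
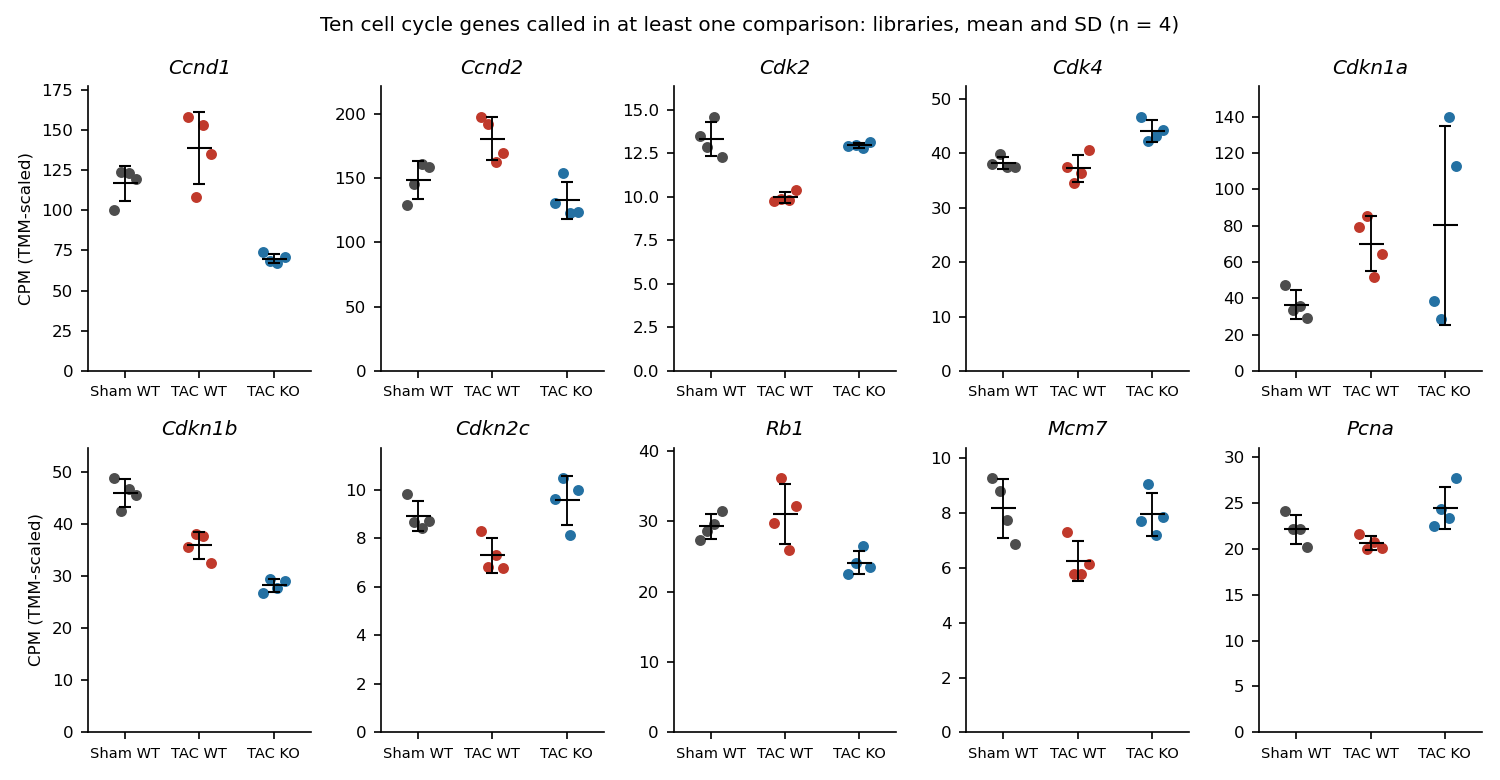
CPM of the 10 genes called in at least 1 comparison, each with its own vertical axis from 0; points are libraries, and bars the mean and SD of the 4 libraries in a group. The TAC KO points of Ccnd1 and Cdkn1b lie below all wild-type points, the TAC WT points of Cdk2 lie below all others, and the TAC KO points of Cdkn1a fall in 2 pairs.

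The kinase partners moved in other directions from the D cyclins. Cdk2, the partner of cyclins E and A, stood at 13.5, 12.9, 14.6 and 12.3 CPM in Sham WT, at 9.73, 9.88, 9.80 and 10.4 CPM in TAC WT, and at 12.9, 13.0, 12.8 and 13.1 CPM in TAC KO. All 4 TAC WT libraries were below all 8 others, and TAC KO lay within the Sham WT range. Cdk2 fell by 25.3% after constriction (log2 -0.42, SE 0.071, edgeR adjusted p = 0.000912) and rose by 30.2% from TAC WT to TAC KO (log2 0.38, SE 0.071, edgeR adjusted p = 0.00132). Both values rest on the same TAC WT libraries. TAC KO against Sham WT gave a log2 difference of -0.040 with a 95% interval of -0.20 to 0.12.

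Cdk4, a kinase partner of the D cyclins that was more abundant per kilobase of exon than Cdk6 (11.8 against 1.11 CPM in Sham WT), stood at 38.1, 39.9, 37.5 and 37.6 CPM in Sham WT, at 37.5, 34.6, 36.4 and 40.6 CPM in TAC WT, and at 46.8, 42.2, 43.1 and 44.3 CPM in TAC KO. All TAC KO libraries were above all wild-type libraries, and the wild-type groups overlapped. Cdk4 rose by 18.4% from TAC WT to TAC KO (log2 0.24, SE 0.060, edgeR adjusted p = 0.00737), and by 15.3% from Sham WT to TAC KO (log2 0.21, SE 0.060, edgeR adjusted p = 0.0212). With the GC and length trends removed the first value was log2 0.16 (edgeR adjusted p = 0.0383) and the second, no longer called, was log2 0.12 (edgeR adjusted p = 0.116). The second call also ended without Sham WT 3, Sham WT 4 or TAC KO 1, with adjusted p from 0.0525 to 0.0618. Exons of Tspan31 on the other strand cover 19.7% of the exon length of Cdk4, and Tspan31 itself rose from Sham WT to TAC KO (log2 0.16, edgeR adjusted p = 0.0486).

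The E cyclins and Cdk6 were not called in any comparison. Ccne2 came nearest: it stood at 2.35, 1.69, 2.09 and 2.82 CPM in Sham WT, at 2.43, 2.03, 2.19 and 2.21 CPM in TAC WT, and at 1.31, 1.61, 1.63 and 1.92 CPM in TAC KO. All TAC KO libraries were below all TAC WT libraries, at a log2 difference of -0.45 (95% interval -0.83 to -0.069, edgeR adjusted p = 0.0533). The edgeR adjusted p was 0.0394 without TAC KO 4 and 0.0467 with a filter of 1 CPM in 4 libraries. Leaving out other single libraries gave edgeR adjusted p up to 0.140. With the GC and length trends removed the difference was log2 -0.20 (edgeR adjusted p = 0.357). Ccne1 lay between 1.002 and 1.86 CPM and Cdk6 between 12.1 and 18.9 CPM across the 12 libraries, with all group ranges overlapping.

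Among the CDK inhibitors, p27, encoded by Cdkn1b and known for holding cells out of the cycle by binding cyclin E-CDK2 and cyclin A-CDK2, fell in both steps. Cdkn1b (chr6:134920401-134925513, plus strand, GRCm38) stood at 48.8, 42.4, 46.7 and 45.5 CPM in Sham WT, at 35.5, 38.0, 37.7 and 32.4 CPM in TAC WT, and at 26.7, 29.4, 27.8 and 29.0 CPM in TAC KO. The 3 groups did not overlap anywhere: every Sham WT library was above every TAC WT library, and these were above every TAC KO library. The gene fell by 21.6% after constriction (log2 -0.35, SE 0.066, edgeR adjusted p = 0.00189) and by 21.5% from TAC WT to TAC KO (log2 -0.35, SE 0.066, edgeR adjusted p = 0.00152). From Sham WT to TAC KO it fell by 38.5% (log2 -0.70, SE 0.066, edgeR adjusted p = 1.96e-05). With the GC and length trends removed the TAC KO versus TAC WT value was log2 -0.23 (edgeR adjusted p = 0.0114). Groups that do not overlap were found for 5 of the 35 genes between TAC WT and Sham WT, 2 higher and 3 lower, where 24.7% of all tested genes had them (12% higher and 12.7% lower). In TAC KO against TAC WT they were found for 7, 3 higher and 4 lower (28.5% of all tested genes, 13.3% higher and 15.2% lower). In TAC KO against Sham WT they were found for 5, 2 higher and 3 lower (30.7%, 14.3% higher and 16.3% lower).

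The p21 gene Cdkn1a, a p53 target that is induced in stressed cells, was uneven across the TAC KO libraries. It stood at 47.5, 33.4, 35.8 and 28.9 CPM in Sham WT, at 79.5, 85.4, 51.6 and 64.5 CPM in TAC WT, and at 38.8, 28.6, 140.2 and 113.1 CPM in TAC KO. All TAC WT libraries were above all Sham WT libraries, whereas TAC KO 1 and 2 lay within the Sham WT range or just below it and TAC KO 3 and 4 lay above every wild-type library. Cdkn1a rose from Sham WT to TAC KO in the fit (log2 1.14, SE 0.388, edgeR adjusted p = 0.0410). That call was lost when Sham WT 2, 3 or 4, TAC KO 3 or TAC KO 4 was left out, with adjusted p from 0.0880 to 0.151, and the log2 value then ran down to 0.73. It also ended with DESeq2 (adjusted p = 0.0548), with only the compared groups in the edgeR fit (adjusted p = 0.0594) and with the GC and length trends removed (edgeR adjusted p = 0.0727).

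Between TAC WT and Sham WT, Cdkn1a had a log2 difference of 0.95 (95% interval 0.071 to 1.82, edgeR adjusted p = 0.102), and the fit shared its estimate of the spread with the uneven TAC KO libraries. In an edgeR fit of the 8 wild-type libraries alone the adjusted p was 0.00268, and it was 0.00775 with no low-count filter and 0.0352 with limma voom. Between TAC KO and TAC WT the log2 difference was 0.19 (95% interval -0.67 to 1.05). It was -0.22 without TAC KO 3, -0.019 without TAC KO 4, and 0.12 with the GC and length trends removed. The coefficient of variation of Cdkn1a within TAC KO was the highest of the 4 inhibitors at 68.5%.

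The INK4 inhibitor p18, encoded by Cdkn2c, which binds CDK4 and CDK6, was higher in TAC KO than in TAC WT. It stood at 9.81, 8.68, 8.43 and 8.73 CPM in Sham WT, at 8.31, 6.83, 7.29 and 6.76 CPM in TAC WT, and at 9.62, 10.5, 8.15 and 9.99 CPM in TAC KO. All TAC WT libraries were below all Sham WT libraries, while TAC KO overlapped TAC WT through its lowest library. Cdkn2c rose by 30.7% from TAC WT to TAC KO (log2 0.39, SE 0.099, edgeR adjusted p = 0.00912). With the GC and length trends removed the value was log2 0.22 and not called (edgeR adjusted p = 0.117). Between TAC WT and Sham WT it had a log2 difference of -0.29 (95% interval -0.51 to -0.061, edgeR adjusted p = 0.0573). That difference was called without TAC WT 1 (edgeR adjusted p = 0.0349). Both differences rest on the same TAC WT libraries. TAC KO against Sham WT gave log2 0.10 (95% interval -0.12 to 0.32, edgeR adjusted p = 0.476), and -0.053 with the GC and length trends removed.

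The p57 gene Cdkn1c, an imprinted inhibitor, was not called by the edgeR test on all 12 libraries. It stood at 20.6, 29.8, 27.0 and 25.8 CPM in Sham WT, at 14.6, 20.8, 23.5 and 15.03 CPM in TAC WT, and at 46.8, 20.1, 19.6 and 24.7 CPM in TAC KO. The library TAC KO 1 was the highest of the 12, and the other TAC KO libraries lay within the wild-type range. Between TAC WT and Sham WT its log2 difference was -0.48 (edgeR adjusted p = 0.190), which was called lower with only the compared groups in the edgeR fit (adjusted p = 0.0475) and with limma voom (log2 -0.64, adjusted p = 0.0198). The log2 difference between TAC KO and TAC WT was 0.58 (95% interval 0.029 to 1.14, edgeR adjusted p = 0.0814). With the GC and length trends removed it was log2 0.38 (edgeR adjusted p = 0.235). In the same TAC KO 1 library the summed level of 5 neutrophil markers was 18.96 CPM, against 2.24 to 7.75 CPM in the other 11. TAC KO 1 also had the largest GC difference, 0.429 log2 units, against 0.104 to 0.125 in the other TAC KO libraries. The part of that library in the value was not tested beyond leaving it out, which gave log2 0.21. The same difference passed the edgeR threshold without TAC KO 2 or without TAC KO 3 (adjusted p from 0.0376 to 0.0456), and with no low-count filter (adjusted p = 0.0103).

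The retinoblastoma gene Rb1, the brake on E2F that cyclin D-CDK4 releases, fell in the knockout. Rb1 stood at 27.4, 28.6, 29.7 and 31.5 CPM in Sham WT, at 29.8, 36.2, 26.0 and 32.2 CPM in TAC WT, and at 22.5, 24.1, 26.5 and 23.6 CPM in TAC KO. All TAC KO libraries were below all Sham WT libraries, and TAC KO 3 overlapped the lowest TAC WT library. Rb1 fell by 22.04% from TAC WT to TAC KO (log2 -0.36, SE 0.091, edgeR adjusted p = 0.00821), and by 17.5% from Sham WT to TAC KO (log2 -0.28, SE 0.091, edgeR adjusted p = 0.0348). With the GC and length trends removed these values were log2 -0.16 (edgeR adjusted p = 0.177) and log2 -0.078 (edgeR adjusted p = 0.553), so neither was called. The second call also ended without any one of Sham WT 2, 3 or 4 or TAC KO 1, 2 or 4 (adjusted p from 0.0627 to 0.105). Rb1 shares exon sequence with Rcbtb2 on the other strand over 8.1% of its exon length, and Rcbtb2 rose from TAC WT to TAC KO (log2 0.69, edgeR adjusted p = 0.000604) while its log2 difference from Sham WT to TAC KO was 0.28 (edgeR adjusted p = 0.0791). It also shares 6.8% with Lpar6 on the other strand, which fell from Sham WT to TAC KO (log2 -0.48, edgeR adjusted p = 0.00566) and had a log2 difference of -0.034 between TAC KO and TAC WT (edgeR adjusted p = 0.840).

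The other members of this group were not called by the edgeR test on all 12 libraries. E2f1, the activator that drives S phase genes, was scarce, between 0.973 and 1.89 CPM in the 12 libraries. Its log2 difference between TAC KO and TAC WT was -0.37 (95% interval -0.81 to 0.076, edgeR adjusted p = 0.168). With the GC and length trends removed it was log2 -0.52 and called (edgeR adjusted p = 0.0490). Rbl1 (p107) ranged from 2.06 to 4.43 CPM. Rbl2 (p130), the family member known for its abundance in resting cells, ranged from 29.9 to 48.2 CPM. The log2 difference of Rbl2 between TAC WT and Sham WT was -0.24 (edgeR adjusted p = 0.170), and without TAC WT 2 it was -0.37 and called (edgeR adjusted p = 0.0173). Per kilobase of exon, Rbl2 and Rb1 were the higher pair in Sham WT, at 5.98 and 4.87 CPM, and Rbl1 and E2f1 the lower, at 0.603 and 0.424 CPM.

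Among replication genes, 1 of the 6 measured subunits of the MCM2-7 helicase changed, and so did the sliding clamp. Mcm7 stood at 9.28, 8.79, 7.74 and 6.86 CPM in Sham WT, at 7.30, 5.79, 5.79 and 6.14 CPM in TAC WT, and at 7.70, 9.07, 7.18 and 7.84 CPM in TAC KO. TAC WT had the lowest 3 libraries of the 12, but TAC WT 1 overlapped both other groups. Mcm7 fell by 23.5% after constriction (log2 -0.39, SE 0.116, edgeR adjusted p = 0.0296) and rose by 26.9% from TAC WT to TAC KO (log2 0.34, SE 0.116, edgeR adjusted p = 0.0349). Both calls rest on the same TAC WT libraries and both were fragile. The first ended when Sham WT 1 or 2 was left out, and likewise TAC WT 2, 3 or 4 (adjusted p from 0.0639 to 0.112) and with limma voom (adjusted p = 0.0622). The second ended without any one of TAC WT 2, 3 or 4 or TAC KO 1, 2 or 4 (adjusted p from 0.0559 to 0.113). It also ended with limma voom (adjusted p = 0.119) and with the GC and length trends removed (edgeR adjusted p = 0.0550). On the other strand, exons of Ap4m1 cover 7.3% of the exon length of Mcm7, and those of the more abundant Cops6 cover 1.4%. Ap4m1 had log2 differences of -0.245 after constriction (edgeR adjusted p = 0.0625) and -0.095 between TAC KO and TAC WT (edgeR adjusted p = 0.435).

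Pcna, the clamp that holds the replicative polymerases on DNA and also serves in repair, stood at 24.1, 22.1, 22.2 and 20.2 CPM in Sham WT, at 21.6, 19.98, 20.8 and 20.03 CPM in TAC WT, and at 22.4, 24.3, 23.3 and 27.7 CPM in TAC KO. All TAC KO libraries were above all TAC WT libraries, and both overlapped Sham WT. Pcna rose by 18.7% from TAC WT to TAC KO (log2 0.25, SE 0.075, edgeR adjusted p = 0.0214). The call ended without TAC WT 4 or without TAC KO 4, with adjusted p from 0.0529 to 0.0831. Mcm2, Mcm3, Mcm4, Mcm5 and Mcm6 were not called in any comparison. Mcm6 in TAC KO lay between 10.1 and 11.3 CPM, above the Sham WT range of 9.65 to 10.1 CPM, but its log2 difference was only 0.11 (95% interval -0.13 to 0.34).

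The 12 genes of S, G2 and M phase were scarce, and 0 of them were called in any comparison by the edgeR test, by DESeq2 or by limma voom. Their log2 differences ran from -0.17 to 0.83 between TAC WT and Sham WT, from -0.35 to 0.76 between TAC KO and TAC WT, and from -0.001 to 0.85 between TAC KO and Sham WT. At an unadjusted p under 0.05 the edgeR test had 1, 0 and 1 of the 12, each time Ccna2. The differences were above 0 for 10, 7 and 11 of them, which is a description of genes that vary together and not of 12 independent measurements. Median levels per kilobase in Sham WT were 0.283 CPM for the 8 mitotic kinase, checkpoint and marker genes, against 5.26 CPM for the 8 G1 cyclins and kinases. Of the 35 genes, 6 had a mean under 1 CPM in every group (Ccnb1, Birc5, Aurka, Aurkb, Plk1 and Bub1), and the lowest count of any member in a library was 5, for Ccnb1. Between TAC WT and Sham WT the SE on the log2 scale ranged from 0.176 (Aurka) to 0.432 (Ccnb1) for these genes, and from 0.060 (Cdk4) to 0.211 (Ccne1) for the G1 cyclins and kinases.

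**Figure D3:**
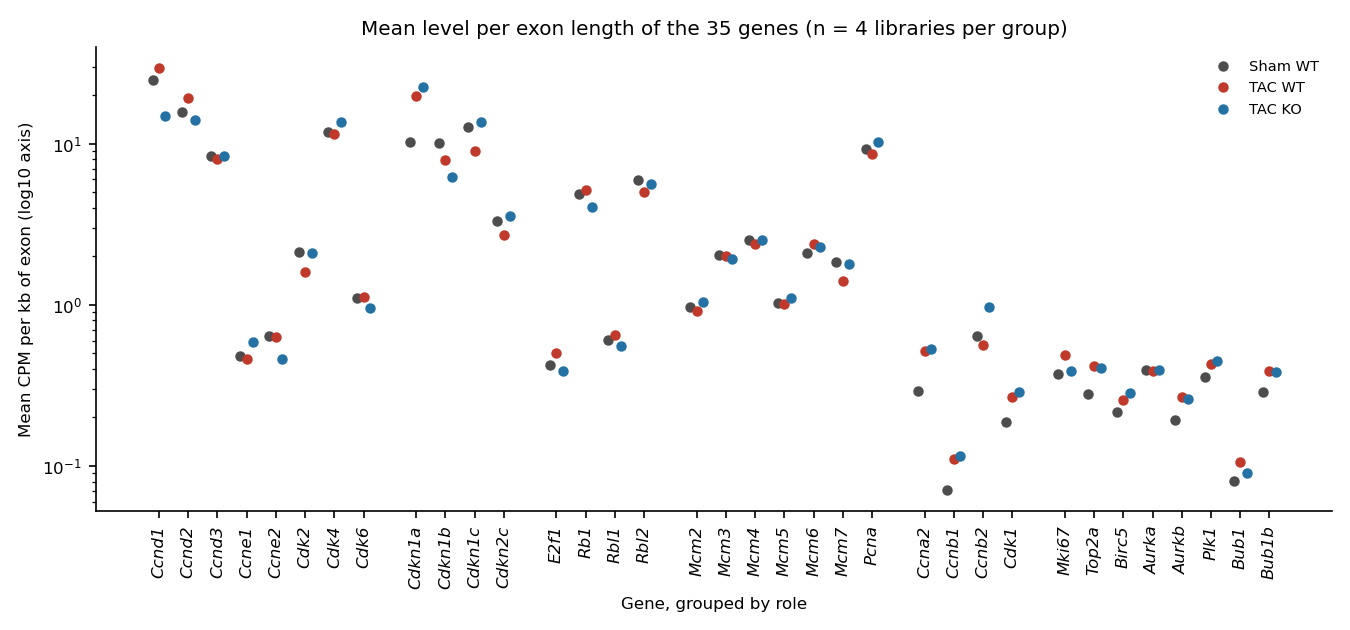
Mean CPM per kilobase of exon (log10 axis) of the 35 genes in Sham WT, TAC WT and TAC KO, grouped by role along the horizontal axis; points are means of 4 libraries. Ccnd1, Ccnd2, Ccnd3, Cdk4, Cdkn1a, Cdkn1b, Cdkn1c and Pcna stand highest in each group, and the S, G2 and M phase genes on the right lie below 1.

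Cyclin A2, which acts in S and G2 phase, had the largest differences of these from Sham WT. Ccna2 stood at 1.31, 1.29, 1.34 and 0.807 CPM in Sham WT, at 3.61, 1.02, 2.42 and 1.36 CPM in TAC WT, and at 1.31, 3.28, 1.54 and 2.52 CPM in TAC KO. TAC WT and TAC KO each ran from within or near the Sham WT range up to more than 3 CPM, and all groups overlapped. The log2 difference was 0.83 between TAC WT and Sham WT (95% interval -0.018 to 1.67, edgeR adjusted p = 0.138) and 0.85 between TAC KO and Sham WT (95% interval 0.006 to 1.697, edgeR adjusted p = 0.103). Without TAC WT 2 the first had an edgeR adjusted p of 0.0423, and without TAC WT 1 its log2 value was the lowest, at 0.43. The second had an edgeR adjusted p of 0.0372 with no low-count filter and 0.0423 with only the compared groups in the fit. Between TAC KO and TAC WT the log2 difference of Ccna2 was 0.025. Exons of the more abundant Exosc9 on the other strand cover 12.5% of the exon length of Ccna2. Exosc9 had log2 differences of 0.106 between TAC WT and Sham WT (edgeR adjusted p = 0.259) and 0.099 between TAC KO and Sham WT (edgeR adjusted p = 0.256).

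Mki67, which encodes the proliferation marker Ki-67, stood at 4.52, 4.44, 3.57 and 2.42 CPM in Sham WT, at 7.93, 2.49, 5.67 and 3.49 CPM in TAC WT, and at 3.40, 6.82, 1.91 and 3.46 CPM in TAC KO. Its log2 difference was 0.39 between TAC WT and Sham WT (95% interval -0.44 to 1.22). Between TAC KO and TAC WT it was -0.35 (95% interval -1.18 to 0.49), and -0.22 with the GC and length trends removed. Top2a, the topoisomerase that untangles replicated chromosomes, stood at 3.48, 2.43, 2.17 and 2.02 CPM in Sham WT, at 5.96, 1.63, 4.16 and 3.27 CPM in TAC WT, and at 2.27, 5.82, 2.48 and 3.95 CPM in TAC KO. Both genes were highest in TAC WT 1 and next highest in TAC KO 2, and in both the 3 groups overlapped.

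Ccnb2, a cyclin partner of CDK1, stood at 1.25, 0.945, 0.714 and 1.03 CPM in Sham WT, at 1.61, 0.339, 0.620 and 0.882 CPM in TAC WT, and at 1.37, 2.41, 0.798 and 1.37 CPM in TAC KO. TAC KO 2 was the highest library and TAC WT 2 the lowest, and the groups overlapped. The log2 difference between TAC KO and TAC WT was 0.76 (95% interval -0.13 to 1.65, edgeR adjusted p = 0.154), and without TAC WT 1 it had an edgeR adjusted p of 0.0259.

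The mitotic genes differed widely between the libraries of a group. TAC WT 1 was the highest of its group for 10 of the 12 genes and TAC WT 2 the lowest for 11. TAC KO 2 was the highest of its group for 11, and TAC KO 3 the lowest for 7. The median of the 12 ratios to the Sham WT mean was 1.94 in TAC WT 1, 0.76 in TAC WT 2, 1.47 in TAC WT 3 and 1.15 in TAC WT 4. In TAC KO libraries 1 to 4 it was 0.99, 1.89, 0.96 and 1.43, and in Sham WT it lay between 0.82 and 1.25. Each constriction group thus held libraries at the sham level and libraries well above it. The median coefficient of variation within TAC WT was 51.6% for the 4 S, G2 and M phase cyclins and Cdk1, against 8.43% for the 8 G1 cyclins and kinases.

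**Figure D4:**
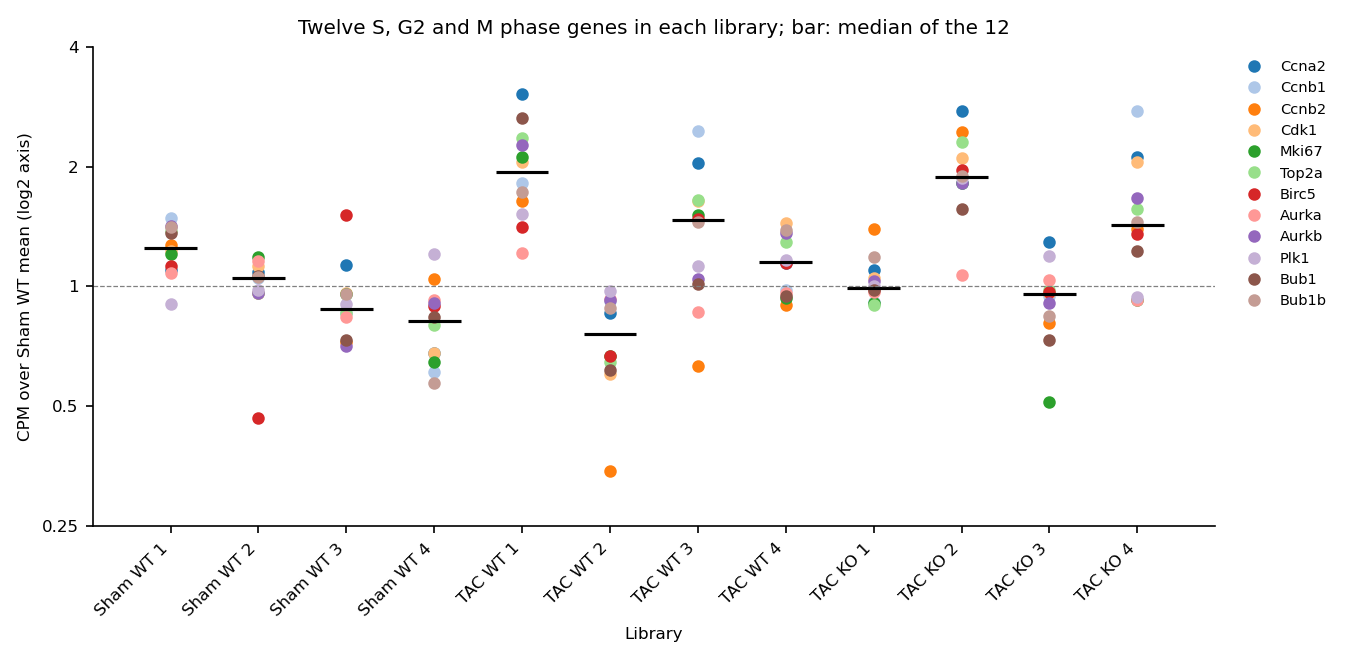
CPM of the 12 S, G2 and M phase genes in each library over the gene's mean in Sham WT (log2 axis, 12 libraries along the horizontal axis); points are genes and bars the median of the 12. The bars of TAC WT 1 and TAC KO 2, at 1.94 and 1.89, are the highest, and that of TAC WT 2, at 0.76, the lowest.

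Markers of other cells moved with some of these libraries. The summed level of 9 macrophage markers was 281, 206, 305 and 281 CPM in TAC WT and 350, 405, 361 and 299.9 CPM in TAC KO, against 217 to 269 CPM in Sham WT. TAC WT 2, the lowest of its group in the mitotic genes, was also the lowest in this sum. TAC KO 2, the highest of its group, was also the highest, while TAC WT 1 was not the highest of TAC WT. TAC KO 4, with a mitotic median ratio of 1.43, was the lowest of TAC KO in this sum. The sum of 6 erythroid genes was 615, 311, 694 and 408 CPM in TAC WT, 383 to 509 CPM in TAC KO and 329 to 492 CPM in Sham WT. The sum of 8 fibroblast markers was 1266, 943, 1108 and 1299 CPM in TAC WT and 1263, 1579, 1388 and 1118 CPM in TAC KO. It was again lowest of TAC WT in TAC WT 2 and highest in TAC KO 2, but lowest of TAC KO in TAC KO 4. In Sham WT it was 790.5 to 917.7 CPM. The sum of 8 endothelial markers was lowest in TAC KO 2, at 1025 CPM. The part of these cells in the mitotic values was not tested.

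Marker lists also held genes called between TAC KO and TAC WT, where 15.7% of all tested genes were higher and 17.3% lower. Of the 9 macrophage markers 5 rose (55.6%), and of the 8 fibroblast markers 3 rose (37.5%). Of the 7 smooth muscle and pericyte markers 4 rose (57.1%), among them Cnn1 (log2 1.18), Vtn (log2 0.85) and Tagln (log2 0.81), and Rgs5 fell (log2 -0.36), with edgeR adjusted p from 2.14e-05 to 0.0111. The sum of that list, of which Rgs5 was the most abundant gene, was 925 to 1142 CPM in TAC WT and 860 to 979 CPM in TAC KO. The mesothelial gene Msln rose from 0.192 to 0.751 CPM (log2 1.91, edgeR adjusted p = 0.0119). Of the 8 endothelial markers 2 fell (25%), Kdr (342.9 to 223.4 CPM) and Tek (77.1 to 59.9 CPM). Cdh5, Tie1 and Vwf had log2 differences of -0.034, 0.016 and 0.013. Pecam1 (226.6 to 203.5 CPM), Emcn (59.51 to 51.75 CPM) and Cldn5 (45.85 to 36.95 CPM) were lower in TAC KO but not called. The sum of the 8 endothelial markers was 1170 to 1433 CPM in TAC WT and 1025 to 1141 CPM in TAC KO. The part of these shifts in the knockout values of Ccnd1, Ccnd2, Cdkn1b, Cdk2, Cdk4, Cdkn2c, Rb1, Mcm7 and Pcna was not tested. Cardiomyocyte markers were abundant in every library of these hearts, with a sum of 70460 to 88200 CPM. Of these 8 markers 2 rose (25%) and 0 fell from TAC WT to TAC KO. Between Sham WT and TAC WT 3 of them fell (37.5%, against 10% of all tested genes). The part of these changes in the values of the 35 genes was not tested. Of 4 atrial markers, Myl7, Sln and Bmp10 were under 0.5 CPM in all 12 libraries, while Myl4 lay between 1.575 and 2.751 CPM.

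Genes of the same pathways outside the 35 were counted in 5 further lists, whose shares are to be read against all tested genes: 9.67% higher and 10% lower after constriction, and 15.7% higher and 17.3% lower between TAC KO and TAC WT. Among 17 E2F and DREAM complex factors, 2 rose after constriction, and in TAC KO against TAC WT 1 rose and 3 fell. Mybl1, a MYB family activator, rose from 1.009 to 2.65 CPM after constriction (log2 1.39, edgeR adjusted p = 9.74e-05) and fell to 0.947 CPM in TAC KO (log2 -1.48, edgeR adjusted p = 6.92e-05). E2f3, an activating E2F, rose from 12.5 to 16.2 CPM (log2 0.38, edgeR adjusted p = 0.00808) and fell to 13.0 CPM in TAC KO (log2 -0.31, edgeR adjusted p = 0.0150). The fall of E2f3 was not called without TAC WT 1 (edgeR adjusted p = 0.0605). Both patterns rest on the same TAC WT libraries.

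Among 40 tested genes of DNA replication, 1 rose and 6 fell after constriction, while 7 rose and 2 fell from TAC WT to TAC KO. That is 2.5% higher and 15% lower after constriction, against 9.67% and 10% of all tested genes, and 17.5% higher and 5% lower between TAC KO and TAC WT, against 15.7% and 17.3%. Dut, which removes dUTP, fell from 16.6 to 11.8 CPM (log2 -0.49, edgeR adjusted p = 0.000846) and rose to 16.4 CPM in TAC KO (log2 0.47, edgeR adjusted p = 0.000828). Rpa2, a subunit of the single-strand binding protein, and Fen1, the flap endonuclease, rose from TAC WT to TAC KO by log2 values of 0.58 and 0.60 (edgeR adjusted p = 0.000539 and 0.00258). The median log2 fold change of the list was -0.083 after constriction and 0.149 from TAC WT to TAC KO.

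Among 53 tested genes of mitosis and cytokinesis, 0 rose and 2 fell after constriction by the edgeR test, and 2 rose and 4 fell from TAC WT to TAC KO. The edgeR test had 5 of the list higher after constriction at an unadjusted p under 0.05, DESeq2 called 0 higher and limma voom 4. Cenpf, a kinetochore protein gene, fell from 39.7 to 7.01 CPM after constriction (log2 -2.50, edgeR adjusted p = 1.93e-05). The list's median was 0.212 after constriction and 0.058 from TAC WT to TAC KO. Among 23 tested other cyclins, kinases and inhibitors, 0 rose and 3 fell after constriction (Ccni, Ccnh and Ccng2). From TAC WT to TAC KO, 6 rose and 8 fell. The rises included Cdk7 (log2 0.283), Ccnh (log2 0.265), Cdk5 (log2 0.278) and Cdkn2d (log2 0.287), with edgeR adjusted p from 0.00953 to 0.0183. With the GC and length trends removed, Cdk5 (log2 0.16, edgeR adjusted p = 0.0773) and Cdkn2d (log2 0.129, edgeR adjusted p = 0.215) were not called. The falls included the transcriptional cyclins Ccnt2 (log2 -0.63), Ccnt1 (log2 -0.48), Ccnl1 (log2 -0.62) and Ccnl2 (log2 -0.54), which serve RNA polymerase II and splicing and not the cycle itself, with edgeR adjusted p between 4.01e-05 and 0.000771.

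Among 24 genes listed as p53 targets, the list to which Cdkn1a is related, 4 rose and 1 fell after constriction. Whether p53 acts on the listed genes in these hearts, the Gadd45 genes among them, was not tested. Gadd45g rose from 10.2 to 39.1 CPM (log2 1.93, edgeR adjusted p = 0.000168) and Btg2, an antiproliferative gene, from 82.1 to 167.7 CPM (log2 1.03, edgeR adjusted p = 0.00208). From TAC WT to TAC KO 4 rose and 6 fell: Gadd45a, a growth arrest gene, rose from 5.89 to 19.5 CPM (log2 1.73, edgeR adjusted p = 7.46e-05) and Btg2 fell to 95.96 CPM (log2 -0.81, edgeR adjusted p = 0.00636). Trp53 itself, at a mean of 24.4 CPM in TAC WT and 23.1 CPM in TAC KO, was not called.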

How the data were processed

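Polyadenylated RNA from 12 mouse heart libraries was sequenced, per the labels, from 250 ng of RNA with a directional kit. The authors deposited raw counts per gene, 1 table per library with 54146 records. The submitters' processing notes name Trim Galore 0.5.0, STAR, featureCounts 1.6.4 and the build GRCm38; the annotation release and the strand setting of the counting are not given in the sources used here. Symbols came from GENCODE by gene identifier (54079 records named), and promoters from RefSeq. The exons of 14 members overlap a gene on the other strand.

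Counts were tested in R 4.3.3 with the edgeR 4.0.16 quasi-likelihood test (TMM scaling, filterByExpr, 12 libraries in 1 fit, 9 residual degrees of freedom), with Benjamini-Hochberg adjustment over 15477 genes and a threshold of 0.05. Intervals are at the 95% level. The scripts were tested on simulated counts. Depth per library sets a floor of 3 counts, 0.0835 to 0.114 CPM, which covers counting error only. Alternatives were DESeq2 1.42.0, limma 3.58.1 voom weighted by library quality, upper-quartile or RLE in place of TMM scaling, no filter, a filter of 1 CPM in 4 libraries, only the compared groups, removal of GC and length trends by splines of 5 degrees of freedom, and leaving out each library.

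The members and lists were chosen with earlier results of these data known. All members could be named; from each further list up to 4 genes per comparison and direction were named, by smallest p among those called. Trp53 and the overlapping genes were named outside this rule. Library numbers follow the order of deposition.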

Additional observations from a re-analysis of the deposited data

Results flagged for a closer look

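Of 105 groups of 4 libraries examined, 1 per member and group, 2 held a library far from the other 3, a number that chance alone gives at about 1 in 20 groups can reach. Ccna2 was 0.807 CPM in Sham WT 4, the lowest of its group, with the nearest of the others at 1.29 CPM. The gap was 0.899 of the group's range, above Dixon's critical value for 4 samples. Ccne1 was 1.58 CPM in TAC WT 4, the highest of its group, with the nearest at 1.15 CPM and a gap of 0.852 of the range. Both genes were scarce, and neither was called in any comparison.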

How the results depend on the processing

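No paired analysis was possible because the labels carry no replicate numbers shared between groups. The calls of Ccnd1, Cdkn1b and Cdk2, and those of Ccnd2 and Cdk4 between TAC KO and TAC WT, held under every alternative run. After constriction 1 member was higher; limma voom had 3, no filter 2 and a fit of the compared groups alone 2, and leaving out 1 library gave 0 to 3. Members lower after constriction numbered 3, with 2 to 4 on leaving out a library. Between TAC KO and TAC WT, 5 were higher (3 with GC and length trends removed, 3 to 6 on leaving out a library) and 4 were lower (4 to 5). Between TAC KO and Sham WT, 2 were higher (1 with DESeq2, 0 with GC and length trends removed, 0 to 2 on leaving out a library) and 3 were lower (2 to 3). Signs turned for uncalled values near 0. With GC and length trends removed, TAC KO minus Sham WT was log2 0.015 for Cdk2 and -0.053 for Cdkn2c. Leaving out a library gave -0.075 to 0.007 for Cdk2 (highest without Sham WT 3) and -0.11 to 0.029 for Mcm7 (above 0 without Sham WT 1 and, at 0.005, without TAC KO 3). For TAC KO minus TAC WT it gave -0.22 to 0.47 for Cdkn1a, below 0 without TAC KO 3 and, at -0.019, without TAC KO 4. Orc4, called lower in TAC KO than TAC WT at log2 -0.32, was at 0.017 with GC and length trends removed. Of 105 member values, 33 changed sign under some alternative, and 0 of these were called. Causes were not tested.

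Counts in the further lists moved by over 1.5 times mainly with limma voom. After constriction it called 4 E2F and DREAM factors higher (edgeR 2) and 2 lower (0), 3 replication genes higher (1), 4 mitosis genes higher (0) and 4 lower (2), and 7 p53 targets higher (4) and 3 lower (1). With GC and length trends removed, 3 E2F and DREAM factors were higher in TAC KO than TAC WT (1), 0 replication genes were lower (2) and 5 other cyclins, kinases and inhibitors were lower (8). Of the members, 6 had a mean under 1 CPM in every group, where depth limits precision, but counts alone did not order the errors: between TAC WT and Sham WT the SE was 0.211 for Ccne1, at 35 to 57 counts a library, and 0.367 for Mki67, at 66 to 290.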

Other observations

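In TAC KO against Sham WT, 6 of the 24 genes listed as p53 targets rose and 2 fell. That is 25% and 8.33%, against 12.8% higher and 14.8% lower among all tested genes. Perp, a membrane protein gene of the p53 pathway, rose from 114.7 to 156.4 CPM (log2 0.45, edgeR adjusted p = 0.000404), and Phlda3, an inhibitor of AKT signalling, rose from 10.04 to 14.9 CPM (log2 0.57, edgeR adjusted p = 0.000382). Rrm2b, a ribonucleotide reductase subunit, fell from 29.6 to 21.7 CPM (log2 -0.45, edgeR adjusted p = 0.00298), a call that ended with GC and length trends removed (log2 -0.17, adjusted p = 0.140). Of the 53 tested genes of mitosis and cytokinesis, 2 rose and 5 fell in the same comparison. That is 3.77% and 9.43%, against 12.8% and 14.8% of all tested genes. The falls included Cenpf, from 39.7 to 8.36 CPM (log2 -2.245, edgeR adjusted p = 5.95e-05). Spc24, a kinetochore subunit, rose by log2 0.75 (edgeR adjusted p = 0.0128). Cdca8, a subunit of the chromosomal passenger complex, rose from 0.601 to 1.21 CPM (log2 1.003, edgeR adjusted p = 0.0202). The Cdca8 call ended without any one of Sham WT 2, 3 or 4 or TAC KO 2 or 4 (edgeR adjusted p from 0.0511 to 0.0650).

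Near-identical records that could share reads with 5 members held few counts over the 12 libraries. The 3 processed pseudogenes of Ccnb1 had 1, 4 and 0 counts against 166 for Ccnb1. Gm5487 had 5 against 2927 for Mcm7, Pcna-ps2 had 71 against 8789 for Pcna, and Ccnd3-ps had 26 against 28289 for Ccnd3. The antisense record Gm44732, which covers part of Cdkn1c, had 61 against 9331.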
